A study of Rattus norvegicus with 8 samples.

Results

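The genes described here are 10 genes of insulin-like growth factor (IGF), hepatocyte growth factor (HGF) and growth hormone signalling, namely Gh1, Ghr, Hgf, Met, Igf1, Igf2, Igf1r, Igfbp2, Igfbp3 and Igfbp5. They were chosen by name, as the array probes annotated to one of these symbols, out of 26514 gene names on the array. Together they have 16 probes. RNA came from the lumbar L6S1 spinal cord of male Wistar rats, 12 weeks old, and was hybridised to 1-colour Agilent rat arrays with 1 array per rat. In one group, 4 rats had been exposed to water avoidance (WA) stress, in which a rat stands on a small platform surrounded by water, for 1 h a day on 10 days, and the other group was 4 control rats. Tissue was taken 24 hours after the last session, on day 11. The comparison asks whether repeated psychological stress left a different level of these transcripts in the segments that receive input from the pelvic viscera.

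Growth hormone, made in the pituitary, acts through its receptor Ghr and the kinase Jak2 and induces Igf1 in liver and in other tissues. Igf1 and Igf2 are secreted peptides that signal through the tyrosine kinase receptor Igf1r, and the Igfbp proteins bind them outside the cell and set how much reaches the receptor. Hgf is a secreted factor whose receptor is the tyrosine kinase Met. Within the central nervous system Igf2 and Igfbp2 are known for high expression in the meninges and choroid plexus, and the IGF and HGF systems are studied there for the survival and growth of neurons and glia.

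The probes are 60 bases long, and their positions are those of the array annotation on the rn4 assembly. Exons and UTRs were not read, as no genome of this build was used. The sequences of 5 probes with an open reading frame over their whole length are shown to give the stretch of transcript that each measured. They are written 5′ to 3′ in the sense of the transcript, and capitals mark a stop codon at the end of an open reading frame. Probes of the same gene gave differences of opposite sign for Ghr and Igfbp5, and of the same sign for Igf1 and Igfbp2. Whether position in the transcript set these differences was not tested. The earlier Ghr probe starts at base 556 of the transcript (chr2:52524230-52524289, minus strand), and the later one starts at base 2047 and ends with the stop codon (chr2:52497358-52497417, minus strand). The Igf1 probe starts at base 584 (chr7:24587916-24587975, plus strand), the Igf1r probe at base 3835 (chr1:122989150-122989209, plus strand) and the Igfbp2 probe at base 926, where it ends with the stop codon (chr9:71993843-71993902, plus strand).
Ghr, base 556: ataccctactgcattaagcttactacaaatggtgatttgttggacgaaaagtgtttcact
Ghr, base 2047: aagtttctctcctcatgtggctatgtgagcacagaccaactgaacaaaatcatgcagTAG
Igf1, base 584: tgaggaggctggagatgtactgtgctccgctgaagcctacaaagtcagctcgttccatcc
Igf1r, base 3835: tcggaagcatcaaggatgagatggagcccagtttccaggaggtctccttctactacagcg
Igfbp2, base 926: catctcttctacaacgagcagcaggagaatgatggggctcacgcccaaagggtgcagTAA
The guanine and cytosine content of the Ghr probes was 36.7% for the earlier and 43.3% for the later probe. It was 55% for the Igf1 probe and 53.3% for both the Igf1r and the Igfbp2 probe.

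Several features of the whole set of arrays touch these genes. The 8 arrays shared 1 slide, of which row 1 held the stressed group and row 2 the controls, so slide row and stress cannot be told apart. The 75th percentile signal, by which each array was scaled, was 1750 to 1940 in stressed and 1840 to 2330 in control rats. Control replicate 2 stood with the stressed rats and not with the other controls: on the first principal component, which held 54.1% of the variance, it lay at -46.1, the stressed rats at -34.5 to -8.23 and the other 3 controls at 39.4 to 56.3. The 5′ to 3′ contrast, which is the log2 signal of a 5′ probe minus that of a 3′ probe of the same transcript and shows how evenly transcripts were labelled along their length (median over 1885 transcripts, centred over the arrays), split the arrays in the same way, at 0.22 on the log2 scale in control replicate 2, 0.09 to 0.17 in stressed rats and -0.30 to -0.18 in the other controls. Whether the label of control replicate 2, its RNA or the animal itself set it apart was not tested. Markers of lumbosacral cord were measured in all rats, but Hoxa10 was at -3.46 in stress replicate 3 and between -0.33 and 0.52 in the other 7 rats, and Hoxd10 was also lowest there, at 0.44 against 1.43 to 2.27. Hoxa9, the remaining tested marker, was instead highest in that rat, at 2.14 against 1.71 to 2.13. Of the marker lists for cell types, 2 of 9 endothelial and mural genes (Pecam1 and Rgs5) and 1 of 6 oligodendrocyte genes (Mog) were called higher in stressed rats at an adjusted p below 0.1, and no gene of the other lists was called. Over all tested probes 2.77% were called higher. The differences were positive for 5 and negative for 4 of the endothelial and mural genes, and for 5 and 1 of the oligodendrocyte genes.

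None of the 8 genes that could be tested differed between stressed and control animals at the threshold used. Levels are given throughout as log2 signal minus that of the array's 75th percentile, so that 0 is the signal of that percentile, and differences are stressed minus control on the same log2 scale. Testing required a signal well above background on 4 or more of the 8 arrays whatever their group, and this held for 13 probes of 8 of the genes. At an adjusted p below 0.1 in limma, 0 of these 13 probes were called, beside 885 of all 23677 tested probes, or 3.74%. At an unadjusted p below 0.05 the count was also 0, beside 20.3% of all tested probes. The values of the groups overlapped for every one of the 13 probes, whereas they did not overlap for 12.1% of all tested probes. The difference was positive for 4 probes and negative for 9, with a median of -0.10 beside 0.06 over all tested probes.

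**Figure D1:**
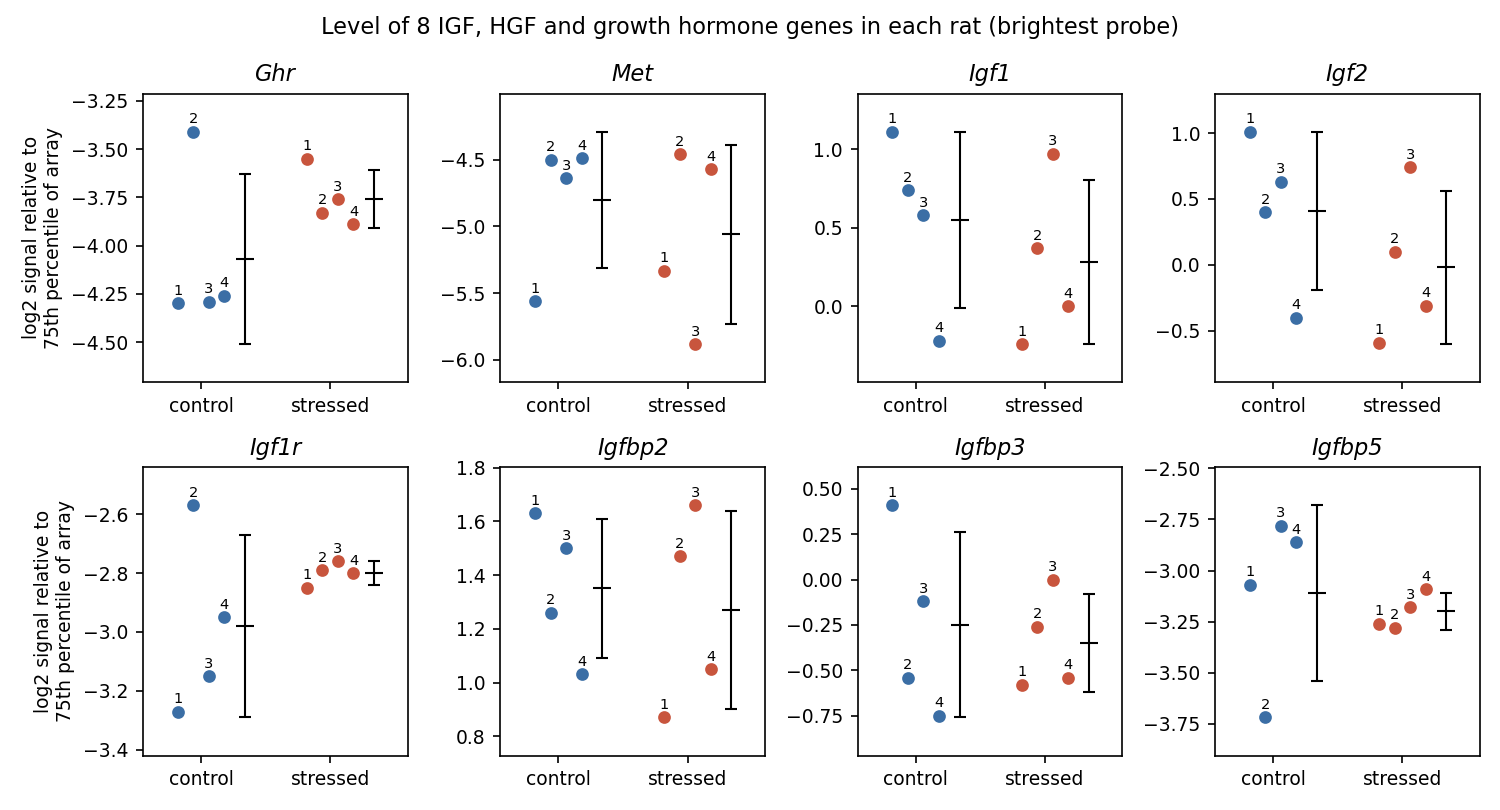
Level of the 8 measured genes in each rat. The vertical axis of each panel is the log2 signal of the brightest probe relative to the array's 75th percentile, points are single rats numbered by replicate (4 control, 4 stressed), and the bar beside them is the mean with 1 SD. The groups overlap in all 8 panels, and control replicate 2 is the highest rat for Ghr and Igf1r and the lowest for Igfbp5.

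Of the secreted factors, Gh1 and Hgf were not measured above background. Gh1, the pituitary growth hormone gene, was well above background on 1 array, that of control replicate 3, and on none of the stressed arrays, with a processed signal of 3.36 to 12.6 over the 8 rats. Hgf, represented by 10 spots of 1 probe, was not well above background on any array, with signals of 5.03 to 9.86. For these genes the arrays give only a bound, and no fold is given for either.

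Igf1 and Igf2 were both measured on all arrays, and both varied more between rats of 1 group than between the groups. Igf1 at base 502 of its transcript was at 1.11, 0.74, 0.58 and -0.22 in control replicates 1 to 4 and at -0.24, 0.37, 0.97 and 0.00 in stress replicates 1 to 4. The lowest control and the lowest stressed rat were thus at nearly the same level, and the ranges overlapped over most of their length. The difference was -0.28 (SE 0.34, n = 4 per group, 95% interval -1.06 to 0.51, limma adjusted p = 0.657). The probe at base 584, whose sequence is shown above, is numbered on another annotated transcript of Igf1. It lies upstream, starting at chr7:24587916 against chr7:24604715 for the probe at base 502, both on the plus strand. Its control values were 0.05, -0.65, -0.56 and -1.23 and its stressed values -1.34, -0.84, -0.35 and -1.07. They gave a difference of -0.30 (SE 0.30, limma adjusted p = 0.580). Both Igf1 probes followed each other over the 8 rats (r = 0.97, given, like the other values between probes of 1 gene, as a description).

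Igf2, the second IGF ligand, had 1 probe near the 3′ end of its transcript (base 4416, chr1:202906641-202906700, minus strand). It was at 1.01, 0.40, 0.63 and -0.40 in control replicates 1 to 4 and at -0.59, 0.10, 0.74 and -0.31 in stress replicates 1 to 4. Its highest rats were control replicate 1 and stress replicate 3 and its lowest were stress replicate 1 and control replicate 4, the same rats as for Igf1. The difference was -0.43 (SE 0.37, 95% interval -1.27 to 0.42, limma adjusted p = 0.523), the most negative of the 13 probes, and smaller than the SD of either group (0.60 in controls, 0.58 in stressed rats).

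Among the receptors, Ghr was measured by 3 probes that did not give the same difference. At base 2047, at the stop codon, control replicates 1 to 4 were at -4.30, -3.41, -4.29 and -4.26 and stress replicates 1 to 4 at -3.55, -3.83, -3.76 and -3.89. The stressed rats lay above 3 of the controls and below control replicate 2, so that the difference of 0.31 (SE 0.21, 95% interval -0.18 to 0.79) had a limma adjusted p of 0.424. At base 2660 controls were at -6.84, -5.97, -6.61 and -6.99 and stressed rats at -6.02, -6.02, -5.88 and -6.50, again with control replicate 2 among the stressed rats, and the difference was 0.50 (SE 0.24, limma adjusted p = 0.278). The probe at base 2660 was dim, with processed signals of 18.3 to 32.7. At base 556, earlier in the transcript, the 4 controls lay closely together at -4.15, -4.03, -4.06 and -3.98, and the stressed rats at -4.0, -4.36, -4.26 and -4.25. Here the difference was negative, -0.16 (SE 0.09, 95% interval -0.37 to 0.05, limma adjusted p = 0.350). With normexp background correction (offset 50) the differences were 0.19 at base 2047, 0.23 at base 2660 and -0.02 at base 556. The probes at bases 2047 and 2660 moved together over the rats (r = 0.87), and the probe at base 556 moved with neither (r = -0.05 and -0.34).

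Igf1r, the receptor through which both IGF ligands signal, was read by 10 spots of 1 probe. Control replicates 1 to 4 were at -3.27, -2.57, -3.15 and -2.95 and stress replicates 1 to 4 at -2.85, -2.79, -2.76 and -2.80. The stressed rats spanned a narrow range that lay above 3 controls and below control replicate 2, and the SD was 0.04 in stressed and 0.31 in control rats. The difference was 0.18 (SE 0.15, 95% interval -0.16 to 0.52, limma adjusted p = 0.494).

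Met, the receptor of Hgf, was measured by its probe at base 1425, with controls at -5.56, -4.50, -4.64 and -4.49 and stressed rats at -5.33, -4.46, -5.88 and -4.57. In each group some rats lay near -4.5, and control replicate 1 and stress replicates 1 and 3 were lower. The difference was -0.26 (SE 0.37, 95% interval -1.12 to 0.60, limma adjusted p = 0.699). A further Met probe at base 3620, whose annotated coordinates span an intron, was not well above background on any array.

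The binding proteins Igfbp2 and Igfbp3 followed the IGF ligands from rat to rat and did not separate the groups. Igfbp2 at base 1214 was at 1.63, 1.26, 1.5 and 1.03 in control replicates 1 to 4 and at 0.87, 1.47, 1.66 and 1.05 in stress replicates 1 to 4, a difference of -0.09 (SE 0.20, 95% interval -0.56 to 0.38, limma adjusted p = 0.817). Its probe at base 926, at the stop codon, had controls between 0.72 and 1.31 and stressed rats between 0.44 and 1.20, and gave -0.18 (SE 0.20, limma adjusted p = 0.622). The lowest stressed rat was replicate 1 at both probes. Igfbp3, the main carrier of IGFs in serum, was at 0.41, -0.54, -0.12 and -0.75 in controls and at -0.58, -0.26, 0.00 and -0.54 in stressed rats, a difference of -0.10 (SE 0.26, 95% interval -0.69 to 0.50, limma adjusted p = 0.848).

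Igfbp5 was read by a pair of probes with opposite differences, of which the one at base 1548 was dim, with processed signals of 14 to 67. At base 5094 of its transcript, controls were at -3.07, -3.72, -2.78 and -2.86 and stressed rats at -3.26, -3.28, -3.18 and -3.09. Control replicate 2 was the lowest rat and the other controls were the highest, with a difference of -0.09 (SE 0.20, 95% interval -0.55 to 0.36, limma adjusted p = 0.800). At base 1548 of another annotated transcript, controls were at -6.80, -5.17, -6.72 and -7.38 and stressed rats at -5.99, -6.75, -4.85 and -6.22, a difference of 0.57 (SE 0.54, 95% interval -0.69 to 1.83, limma adjusted p = 0.566). Over the 8 rats these probes ran against each other (r = -0.67). On rn4 the Igfbp2 and Igfbp5 probes lie close together on chromosome 9 and on opposite strands, Igfbp2 at chr9:71994131-71994190 and Igfbp5 at chr9:72000312-72000371. Yet the probes at these positions did not vary together (r = 0.06, rho = 0.14, exact permutation p = 0.889, adjusted over the 65 relations 0.979). For the Igfbp2 probe at base 926, r with the same Igfbp5 probe was 0.43.

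**Figure D2:**
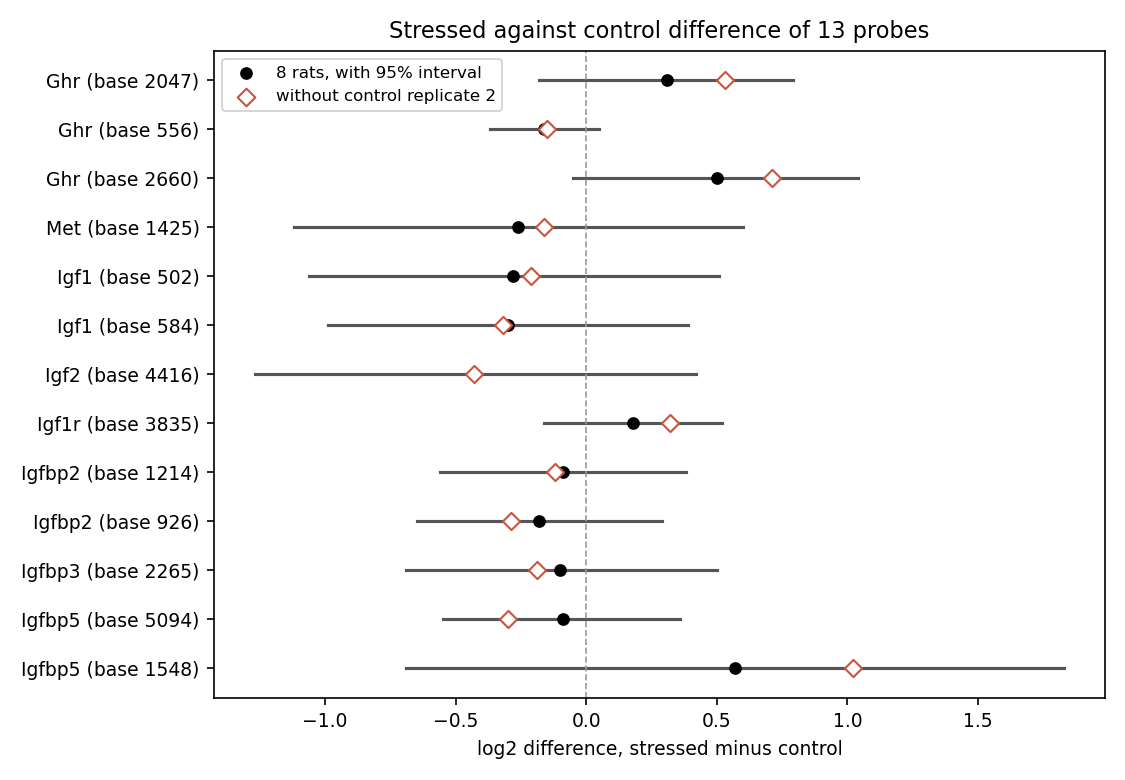
Difference of each of the 13 tested probes, named by gene and first base in the transcript annotated to that probe. The horizontal axis is the log2 difference, stressed minus control. Filled points are the values over all 8 rats with their 95% interval from limma, and open diamonds are the values without control replicate 2. All 13 intervals include 0, and the Ghr probes at bases 2047 and 2660 move from 0.31 and 0.50 to 0.53 and 0.71 without that rat.

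The results for Ghr at bases 2047 and 2660, Igf1r and Igfbp5 at base 5094 depended on control replicate 2. Without it, 4 of the 13 probes were called, or 30.8%, beside 42.4% of all tested probes (10038), so that the share among these genes was not above the share among all probes. The called probes were Ghr at base 2047 (0.53, limma adjusted p = 0.00539), Ghr at base 2660 (0.71, adjusted p = 0.0186), Igf1r (0.32, adjusted p = 0.0256) and Igfbp5 at base 5094 (-0.30, adjusted p = 0.0403). No member probe was called without any one of the other rats. Without stress replicate 3, the rat with low Hoxa10, the Met difference moved from -0.26 to 0.01 and the other probes kept their sign, with Igf2 at -0.68 (limma adjusted p = 0.399), Igf1 at base 502 at -0.50 (adjusted p = 0.476) and Igfbp5 at base 1548 at 0.20 (adjusted p = 0.861). Leaving out other rats moved Igf2 and Igf1 the other way. They were at -0.23 and -0.09 without control replicate 1 and at -0.24 and -0.10 without stress replicate 1, and over all rats left out in turn they ran from -0.70 to -0.23 and from -0.53 to -0.09.

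The level of the same 4 probes followed the 5′ to 3′ contrast of the arrays. Control replicates 1, 3 and 4, with negative values of that measure, had the 3 lowest levels of Ghr at bases 2047 and 2660 and of Igf1r, and the 3 highest levels of Igfbp5 at base 5094. Control replicate 2, with the highest value, had the highest level of Ghr at base 2047 and of Igf1r and the lowest of Igfbp5 at base 5094. The 4 probes are those called without control replicate 2, which sets the other 3 controls against the rest as this measure does, so the match was in large part fixed by that choice. Nor was it particular to them, as an r of at least 0.9 in size with this measure was found for 15.5% of 20685 gene names. As the arrays fall into 3 and 5 on this measure, no correlation with it is read for single probes. With the measure as a covariate, the difference was -0.20 for Ghr at base 2047, 0.02 at base 2660, -0.16 for Igf1r and 0.36 for Igfbp5 at base 5094, and none was called (limma adjusted p = 0.324, 0.960, 0.306 and 0.158). The sign turned for 3 of these 4 probes and for 7 of all 13, the others being Igfbp5 at base 1548 (0.57 to -0.40), Igfbp3 (-0.10 to 0.21) and Igfbp2 at bases 926 (-0.18 to 0.09) and 1214 (-0.09 to 0.02). The Ghr probe at base 556, at -0.16 without the covariate, was at -0.20. Control replicate 2 was the only control with a positive value of this measure. The fit with the covariate thus compares the groups largely through that rat. Where it lay with the stressed rats, smaller or turned differences were in large part fixed in advance. The part of RNA or labelling quality in these levels was not tested.

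**Figure D3:**
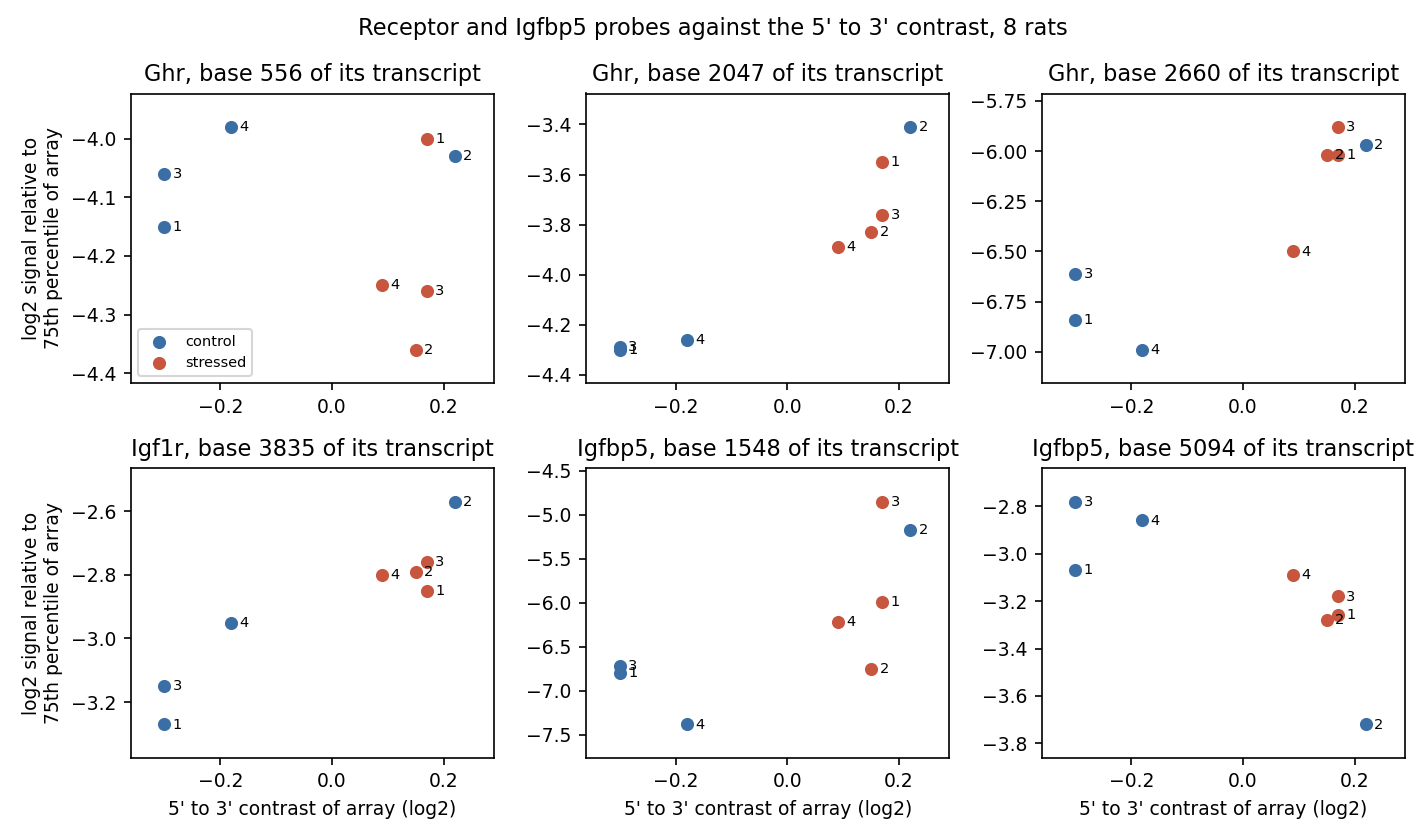
Levels of the Ghr, Igf1r and Igfbp5 probes against the 5′ to 3′ contrast of each array. The horizontal axis is that contrast (log2, centred), the vertical axis is the log2 signal relative to the 75th percentile, and each point is 1 rat with its replicate number. control replicate 2 lies at 0.22, just beyond the stressed rats at 0.09 to 0.17, and the other controls lie at -0.30 to -0.18.

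Igf1, Igf2, Igfbp2 and Igfbp3 rose and fell together from rat to rat, whichever group the rat was in. For Igf1 and Igf2, r was 0.98 and rho 0.98 (exact permutation over all pairings, p = 0.000223 and 0.000397, adjusted over 65 relations, p = 0.00242 and 0.0043). The 65 relations were 28 pairs of genes, 24 of a gene with a marker list and 13 of a probe with the 5′ to 3′ contrast. For Igf1 and Igf2, r was still 0.96 after leaving out the 2 rats farthest from the median of Igf1, and 0.98 with the group means removed. The other 5 pairs among these 4 genes had r between 0.84 and 0.93 and rho between 0.90 and 0.95, with adjusted exact permutation p between 0.0133 and 0.0332 for r. The lowest r after leaving out the 2 farthest rats was 0.75, for Igf1 and Igfbp3. None of the 4 genes had such a relation with Met, Igf1r, Igfbp5 or Ghr, where r lay between -0.61 and 0.17. All these values are for the brightest probe of each gene. The other Igfbp2 probe, at base 926, had r of 0.74, 0.84 and 0.82 with Igf1, Igf2 and Igfbp3. With Ghr at base 2047 its r was -0.65, and with Igfbp5 at base 5094 it was 0.43.

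The same 4 genes moved with markers of meninges and fibroblasts. The methods state that the meninges were removed, yet the 9 marker genes of this list, among them the collagens Col1a1, Col1a2 and Col3a1, the proteoglycans Dcn and Lum and the binding protein Igfbp6, which is also on the pathway list, were all measured. Their summed linear level was 7.23, 3.90, 4.59 and 2.21 in control replicates 1 to 4 and 2.37, 3.61, 5.24 and 2.70 in stress replicates 1 to 4, in units of the 75th percentile signal. Igf2 had r = 0.98 and rho = 0.98 with the log2 of this sum (exact permutation p = 7.44e-05 and 0.000397, adjusted p = 0.00161 and 0.0043, r = 0.99 without the 2 farthest rats). For Igf1 r was 0.97 and rho 0.95 (exact permutation p = 0.000149 and 0.00114, adjusted p = 0.00193 and 0.00618, r = 0.96 without the 2 farthest rats). For Igfbp2 r was 0.92 and rho 0.93 (exact permutation p = 0.00216 and 0.00223, adjusted p = 0.0133 and 0.0112, r = 0.95 without the 2 farthest rats), and for Igfbp3 r was 0.94 and rho 0.98 (exact permutation p = 0.000372 and 0.000397, adjusted p = 0.00345 and 0.0043, r = 0.85 without them). An r of at least 0.9 with this sum was found for 0.435% of 20685 gene names, the list genes counted among them, and in the order of r Igf2 came at place 10, Igf1 at 17, Igfbp3 at 36 and Igfbp2 at 69. The 9 marker genes themselves did not differ between the groups at the threshold (0 of 9 called, median difference -0.28).

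The relation was not shown to be particular to meninges and fibroblasts. Some genes of Schwann cells, which lie in the nerve roots, varied over the rats in a similar way. Pmp2, a protein of peripheral nerve sheaths, was at 1.73, -1.38, -0.87 and -2.47 in control replicates 1 to 4 and at -2.81, -1.87, -0.37 and -2.66 in stress replicates 1 to 4. Prx, periaxin, was at -2.55, -3.72, -4.62 and -7.32 in controls and at -6.34, -5.78, -3.95 and -6.23 in stressed rats. In both, control replicate 1 was the highest rat and stress replicate 3 the highest stressed rat, as for Igf1 and Igf2, and control replicate 4 and stress replicate 1 were the lowest rats of their groups. Neither was called (limma adjusted p = 0.478 and 0.576). Sox10, on the same list, was at 1.87, 2.05, 1.88 and 1.92 in control replicates 1 to 4. It did not follow Pmp2 and Prx in the controls, though its highest stressed rat was also replicate 3. With the microglia and macrophage list Igf1 and Igf2 had no such relation. For Igf1 r was -0.12 and for Igf2 -0.24 (rho -0.02 and -0.12, exact permutation p = 0.760 and 0.544, adjusted p = 0.882 and 0.707 for r). In such bulk tissue, fewer cells of a type and less RNA per cell cannot be told apart.

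**Figure D4:**
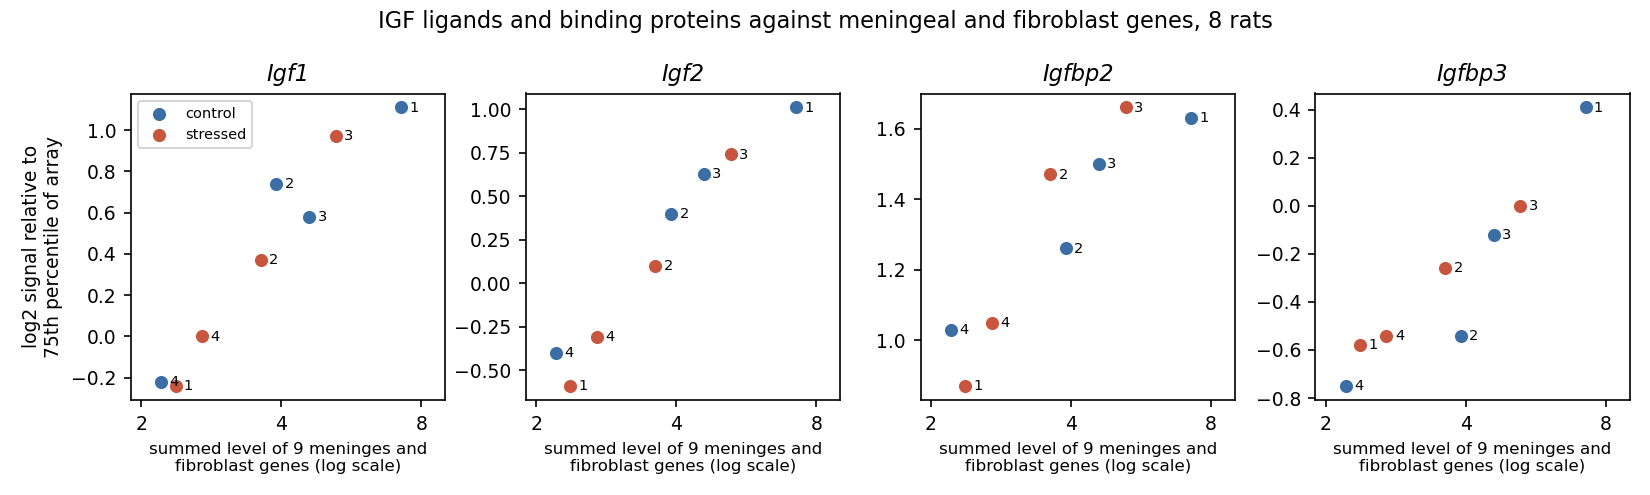
Igf1, Igf2, Igfbp2 and Igfbp3 against the summed level of 9 meninges and fibroblast genes. The horizontal axis is the sum of linear levels in units of the 75th percentile signal (log scale), the vertical axis is the log2 signal relative to that percentile, and each point is 1 rat with its replicate number. control replicate 1 (7.23) and stress replicate 3 (5.24) are at the upper end in all 4 panels, and rats of both groups lie along 1 rising band.

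With the log2 of the meninges and fibroblast sum as a covariate, an alternative chosen after seeing the data, the differences shrank to -0.01 for Igf1 (SE 0.12, limma adjusted p = 0.969) and -0.13 for Igf2 (SE 0.10, adjusted p = 0.487). Those of Igfbp2 and Igfbp3 were 0.06 (SE 0.11, adjusted p = 0.782) and 0.10 (SE 0.11, adjusted p = 0.631), against -0.09 and -0.10 without it. The SE of Igf1 thus fell from 0.34 to 0.12 and that of Igf2 from 0.37 to 0.10. Igf1 and Igf2 already had r = 0.97 and 0.98 with this sum over the same rats. The lower SE and smaller differences were thus in large part fixed in advance, and they add no evidence for the relation. Whether tissue carried over at dissection set these levels was not tested.

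The genes whose profiles over the 8 rats were most like each member were sought among 13358 symbols. For Igf1 these were the collagen gene Col1a2 (r = 0.995) and Adam33 (r = 0.987), for Igf2 the collagen genes Col6a2 (r = 0.991) and Col1a1 (r = 0.981), and for Igfbp3 the matrix protein genes Efemp1 (r = 0.974) and Lum (r = 0.973). For Igfbp2 they were Cpxm2 (r = 0.980) and Nupr1 (r = 0.973). Ghr was most like Elac1 (r = 0.998) and Zdbf2 (r = 0.996), Igf1r like Rmnd5b (r = 0.996) and Ing4 (r = 0.994), Igfbp5 like Eif2ak2 (r = 0.985) and St3gal2 (r = 0.984), and Met like Unc45b (r = 0.974) and Kcnd1 (r = 0.973). These are the highest of many values over 8 arrays and are given as a description. Col1a2, Col1a1 and Lum are also on the meninges and fibroblast list.

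Other genes of the pathways were taken from a list of 44, of which 43 had a probe and 35 were tested. None was called, and at an unadjusted p below 0.05 there were 6 with a positive and 1 with a negative difference, beside 13.6% and 6.67% of all tested probes. The median difference of the 35 genes was 0.08, with 26 positive and 9 negative, beside a median of 0.06 and 59.6% positive over all tested probes. Below the level for testing were the growth hormone releasing hormone receptor Ghrhr, the insulin receptor relative Insrr, the stanniocalcin Stc2, the mRNA-binding proteins Igf2bp1 and Igf2bp3, the HGF activator Hgfac, the HGF-like factor Mst1 and its receptor Mst1r.

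The smallest p among them belonged to Stc1, a stanniocalcin that inhibits the IGFBP protease Pappa. It was at -4.32, -4.11, -4.08 and -3.97 in controls and at -4.36, -4.47, -4.88 and -4.38 in stressed rats. All stressed rats were below all controls, though by little between control replicate 1 and stress replicate 1. The difference was -0.40 (SE 0.14, limma adjusted p = 0.174), and the exact permutation p of 0.0286 is the smallest that 4 against 4 rats allow. It was the only one of the 35 genes whose groups did not overlap, whereas they did not overlap for 12.1% of all tested probes.

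The next 5 genes by p all had a positive difference. Ptpn11, the phosphatase Shp2 that relays receptor signals to the Ras pathway, was at -3.36, -2.07, -3.40 and -3.19 in controls and between -2.42 and -1.97 in stressed rats, a difference of 0.83 (SE 0.29, limma adjusted p = 0.189). Igf2bp2, which binds Igf2 mRNA, was at -3.05, -1.5, -4.11 and -3.81 in controls and between -2.12 and -0.96 in stressed rats, a difference of 1.58 (SE 0.57, adjusted p = 0.195). In both, control replicate 2 was at the level of the stressed rats and the other 3 controls were below it. The same held for Irs1, an adaptor of the insulin and IGF1 receptors (0.57, SE 0.22, limma adjusted p = 0.214), and for Grb10, an adaptor that restrains those receptors (0.60, SE 0.24, adjusted p = 0.215). Irs1 was dim, with geometric mean processed signals of 24.1 in controls and 31.2 in stressed rats. With normexp background correction (offset 50) Irs1 was at 0.19, and Ptpn11, Igf2bp2 and Grb10 were at 0.63, 1.21 and 0.52. Igfbp1, a binding protein regulated by insulin, was at -1.75, -1.41, -2.16 and -1.71 in controls and between -1.47 and -1.02 in stressed rats (0.47, SE 0.17, limma adjusted p = 0.196).

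Without control replicate 2, 14 of the 35 genes were called, or 40%, again beside 42.4% of all probes. These included the 6 named above, at -0.40 for Stc1 (limma adjusted p = 0.0817), 1.14 for Ptpn11 (0.0011), 2.12 for Igf2bp2 (0.0064), 0.59 for Igfbp1 (0.0265), 0.81 for Irs1 (0.00166) and 0.84 for Grb10 (0.00411). Socs2, a feedback inhibitor of growth hormone receptor signalling, was also called then, at 1.09 (adjusted p = 0.00544), as was the insulin receptor Insr at 0.63 (adjusted p = 0.0356). With the 5′ to 3′ contrast as a covariate none of the 6 was called. Ptpn11 was then at 0.09, Igf2bp2 at 0.36, Irs1 at 0.04 and Grb10 at 0.06, and Stc1 at -0.42 (limma adjusted p = 0.239). That fit compares the groups largely through control replicate 2, the only control with a positive value of the contrast. Where this rat lay with the stressed rats, the smaller differences were in large part fixed in advance.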

How the data were processed

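Single-colour Agilent rat arrays measured spinal cord RNA, 1 array for each of 4 stressed and 4 control rats. Per the file headers, the deposited intensity values are the processed signal of Agilent Feature Extraction 10.7.3.1, background-subtracted and detrended within each array, and the spot annotation is on rn4. The authors' value table holds the same intensity, rounded. Other deposited columns used are the flags for outlier spots and for spots well above background. The 4259 control spots were left out. Outlier spots were set to missing, log2 signal was scaled by the 75th percentile of the 58717 other spots, and spots of a probe were averaged (30367 probes, of which 10 were missing on an array).

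Probes well above background, in at least 0.5 of their spots, on at least 4 of 8 arrays were tested (23677) with limma 3.58.1 in R 4.3.3, data.table version 1.17.8 and statmod 1.5.0, with no covariate, two-sided, and Benjamini-Hochberg adjustment over all tested probes at 0.1. Between 22998 and 24064 probes were well above background per array. As arrays give no counts, their number limits the precision. Single values were compared over all 70 choices of 4 arrays. The fit was tested on simulated data. The 5′ to 3′ contrast uses probes at least 300 bases apart.

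The members and lists were chosen with earlier results of these data known. Named were all members, with the brightest probe standing for a gene and other probes where they differ, pathway genes called and the 6 of smallest p, and for each member the 2 symbols of highest correlation. Col3a1, Dcn, Pmp2, Prx, Sox10, Hoxa10, Hoxd10, Hoxa9, Pecam1, Rgs5, Mog, Igfbp6, Socs2 and Insr are outside this rule and were chosen once their values had been seen. The labels give separate samples, and p-values measure the spread between these. Alternatives were normexp with an offset of 50, quantile normalization, the values as tabulated by the authors, no filter or a filter on all 8 arrays, array weights, a variance trend with robust estimation, the 5′ to 3′ contrast as a covariate, a single probe per gene name, replicate number as a block and each array left out. The summed level of the Schwann cell list, whose relations count among the 65, is not reported here.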

Additional observations from a re-analysis of the deposited data

Results flagged for a closer look

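For each tested member probe and each of the 6 named pathway genes, the most extreme rat of each group of 4 was compared with the rest by its gap as a share of the range, against Dixon's 95% critical value. Of 38 groups, 3 passed, and chance alone passes about 1 in 20 groups, or 1.9 here. For Ghr at base 2047, control replicate 2 was at -3.41 and the other controls at -4.30 to -4.26, a gap of 0.962 of the range. For Ptpn11, control replicate 2 was at -2.07 and the other controls at -3.40 to -3.19, a gap of 0.845. For Met at base 1425, control replicate 1 was at -5.56 and the other controls at -4.64 to -4.49, a gap of 0.866. For Ghr and Ptpn11 the rat was the one whose array also stood apart on the first principal component, and for Met it was not.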

How the results depend on the processing

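Of the member probes, 0 were called as reported and under every alternative except array weights (4, with a weight of 0.107 for control replicate 2), and 0 to 4 with 1 rat left out, where the 4 came without control replicate 2. Pathway genes called were 0 except with array weights (18), with the 5′ to 3′ contrast as a covariate (3, all lower: Plxnb1, Stat5b and Igfals) and with 1 rat left out (0 to 14, the 14 again without control replicate 2). The count over all probes, 885, was 215 with normexp, 3010 with no filter on dim probes, 11983 with array weights, 2390 with the 5′ to 3′ covariate, 40 with the meninges and fibroblast covariate (chosen after seeing the data) and 0 to 10038 with 1 rat left out, the highest without control replicate 2. Quantile normalization gave 1180, with 685 higher and 495 lower, against 655 and 230. With replicate number as a replicate block 0 probes in all and 0 member probes were called, with 1 member probe at an unadjusted p below 0.05; same-numbered rats did not deviate together (r = 0.10, 0.12, -0.09 and 0.31), and only replicate 4 matched its own number best, so the numbers were not taken to pair the rats. The cause of these changes was not tested. With 4 rats per group, the widest 95% interval of a member probe, that of Igfbp5 at base 1548, ran from -0.69 to 1.83, and Gh1 and Hgf could not be compared at this signal.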
